A study of Homo sapiens with 9 samples.

Results

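Annexins are cytosolic proteins that attach to membranes carrying acidic phospholipids when calcium rises. Each has a conserved core of repeats that holds the calcium sites and a variable amino-terminal tail, and several tails dock EF-hand proteins of the S100 or penta-EF-hand families. They are known for membrane repair, vesicle traffic, plasminogen binding at the cell surface and, for annexin A1, for the anti-inflammatory action of glucocorticoids. Mature hepatocytes hold little annexin A1, while annexins A1, A2 and A3 are known from bile duct cells, injured liver and liver tumours.

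The 10 genes described here (ANXA1, ANXA2, ANXA3, ANXA4, ANXA5, ANXA6, ANXA7, ANXA9, ANXA11 and ANXA13) were chosen by family symbol from the 24204 genes of the expression table. The choice was made with the strong rise of ANXA1 already known, so its values are given as a description with no test. It also asked for expression in epithelial cells, and the 3 family genes outside it were near 0. ANXA8 reached at most 7 fragments and 0.0494 FPKM (fragments scaled for gene length and library size) in a library, ANXA8L1 2 fragments and 0.0289 FPKM, and ANXA10 1 fragment and 0.0184 FPKM. The lowest value of any member was 0.151 FPKM, for ANXA1 in control cells.

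The cells were HepG2, an epithelial line from a human liver cancer, infected with lentivirus for 48 h and then selected with puromycin for another 48 h. RNA came from the second passage. Each lentivirus carried a control hairpin (shCtrl) or a hairpin against TRIB3, a pseudokinase induced under amino acid shortage (shTRIB3-1 or shTRIB3-2), and each group had 3 libraries. All 3 groups therefore shared the infection and the drug. The labels describe high-glucose DMEM with 10% serum and no glutamine withdrawal. By contrast, the methods of the study, in a passage for all its RNA-seq, speak of cells deprived of glutamine and of another library kit. Elsewhere the study reports changed expression of DNA repair genes after TRIB3 depletion without glutamine deprivation. The medium at harvest is uncertain for every group. No source states that the libraries of a group came from separate cultures, and the p-values then measure only the spread between these libraries, which may be technical.

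Both hairpins match TRIB3, and they are shown because ANXA1 and, by small margins, ANXA4, ANXA5 and ANXA11 differed between them. Their target sites in the TRIB3 transcript read, 5′ to 3′:
shTRIB3-1: tggatgacaacttagataccg
shTRIB3-2: gccgtgctcttccgccagatg
The shTRIB3-1 site was present over its 21 bases in 4 of 4 annotated TRIB3 transcripts, and the shTRIB3-2 site in 3 of 4. Among 126 annotated transcripts of the 10 annexins, the best match to shTRIB3-1 covered 16 of 21 bases, in ANXA7. The best match to shTRIB3-2 covered 14 of 21 bases, in ANXA2.

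Library totals ran from 34206726 to 36311029 fragments. TRIB3 (GRCh38 chr20:362835-397559, plus strand) averaged 66.8 ± 1.08 FPKM in shCtrl, 33.6 ± 0.760 with shTRIB3-1 and 20.5 ± 0.171 with shTRIB3-2 (SD, n = 3 each). All 6 knockdown libraries were below the controls, and TRIB3 fell by 0.99 and 1.70 on the log2 scale (limma adjusted p = 5.30e-11 and 5.39e-13). The 10 hepatocyte markers, led by ALB, summed to 8225 to 8857 FPKM in shCtrl, 8524 to 8954 with shTRIB3-1 and 10701 to 11014 with shTRIB3-2. Fibroblast markers summed to at most 0.210 FPKM in any library. Bulk RNA cannot tell fewer cells of a type from less RNA per cell.

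Control HepG2 cells expressed 8 of the 10 annexins at 10 FPKM or more. ANXA5, the phosphatidylserine-binding annexin used to stain dying cells, led with a mean of 129.6 FPKM and ranked 382 among all 24204 genes. It was followed by ANXA6 (63.9), ANXA7 (54.7), ANXA2 (34.6), ANXA4 (31.8), ANXA11 (17.1), ANXA3 (14.0), ANXA9 (10.7), ANXA13 (3.13) and ANXA1 (0.167 FPKM). No neighbours in this order overlapped between libraries. With shTRIB3-1, ANXA1 moved from the last place to the third, level with ANXA7 and overlapping it, and ANXA3 drew level with ANXA2, again with overlap. With shTRIB3-2, ANXA1 stood in the ninth place, between ANXA9 and ANXA13, and ANXA3 and ANXA2 overlapped. ANXA5 and ANXA6 stayed in the leading places in every group.

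**Figure D1:**
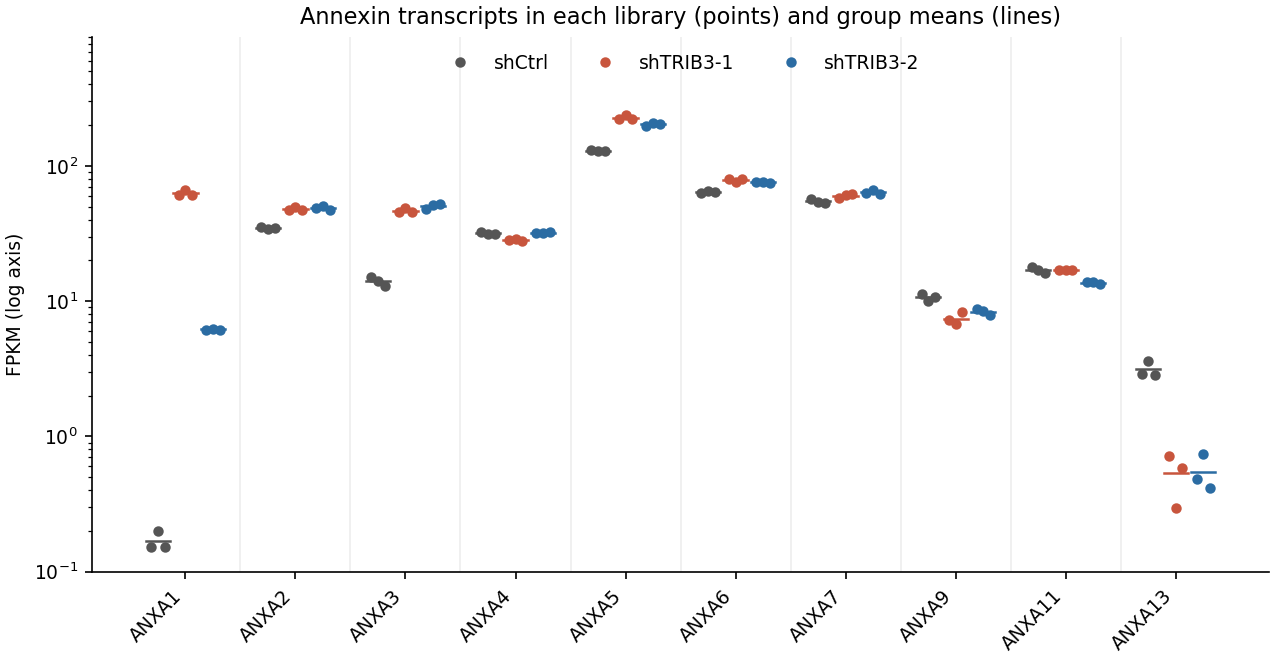
FPKM of the 10 annexins (log axis) in each of the 9 libraries, with points for libraries and lines for group means. ANXA1 sits near 0.2 FPKM in shCtrl, near 63 with shTRIB3-1 and near 6 with shTRIB3-2, ANXA3 and ANXA5 are higher with both hairpins, and ANXA13 is lower with both.

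ANXA1 encodes a glucocorticoid-regulated annexin that lowers phospholipase activity and, once released, binds formyl peptide receptors. The gene lies at GRCh38 chr9:73151865-73170393 on the plus strand. It measured 0.151, 0.199 and 0.151 FPKM in the shCtrl libraries, from 9, 12 and 9 fragments. It measured 61.1, 66.3 and 61.2 FPKM with shTRIB3-1 (3474 to 3774 fragments) and 6.16, 6.26 and 6.10 FPKM with shTRIB3-2 (350 to 362 fragments). The 3 groups were far apart and no libraries overlapped. ANXA1 was nearly silent in control cells, moderately expressed with the second hairpin and, with the first, as abundant as ANXA7. The mean FPKM was 376-fold higher than control with shTRIB3-1 and 36.9-fold higher with shTRIB3-2, and both ratios rest on 30 control fragments in all. On the log2(FPKM + 0.1) scale the differences were 7.88 and 4.56 (SE 0.0729 each), and the difference of shTRIB3-2 from shTRIB3-1 was -3.33. ANXA1 had the largest increase of all 11265 tested genes with shTRIB3-1 and the fourth largest with shTRIB3-2. TRIB3 itself was lower with shTRIB3-2 than with shTRIB3-1 (log2 difference -0.71, limma adjusted p = 9.54e-09), so of the 2 knockdown groups the one with less TRIB3 transcript had less ANXA1. Among the other genes, 486 were called higher with both hairpins, and 52 of these were called lower in shTRIB3-2 than in shTRIB3-1, where a call needed an adjusted p under 0.05 and an absolute log2 difference above 1.

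The genes whose pattern over the 9 libraries was most like that of ANXA1 were CRYAB, PLIN3, HSPA6, RESF1 and MORC4, with Pearson r from 0.997 to 0.999 on the log2 scale. CRYAB, a small heat shock protein, averaged 2.80 FPKM in shCtrl, 124 with shTRIB3-1 and 23.5 with shTRIB3-2. HSPA6, a strictly inducible heat shock protein of the HSP70 family, averaged 1.76, 130.1 and 26.9 FPKM in the same order. PLIN3, a lipid droplet coat protein, moved over a narrower range, with 114 FPKM and 86.6 FPKM in the knockdown groups and log2 differences from control of 0.92 and 0.53. These r values describe 3 group levels more than 9 separate points, and 421 of 11264 other genes reached an r of at least 0.95. Among the other annexins, r with ANXA1 was 0.97 for ANXA5, 0.96 for ANXA6, 0.88 for both ANXA3 and ANXA2 and 0.64 for ANXA7. It was -0.11 for ANXA11, -0.76 for ANXA4, -0.88 for ANXA13 and -0.93 for ANXA9.

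ANXA3, an annexin first studied in neutrophil granules, changed the most among the annexins that control cells already expressed well (GRCh38 chr4:78551747-78610451, plus strand). It measured 15.2, 14.0 and 12.8 FPKM in shCtrl, 45.2, 48.6 and 45.7 with shTRIB3-1 and 48.3, 51.4 and 52.1 with shTRIB3-2. The 6 knockdown libraries were all above the controls, and the hairpins overlapped. Mean FPKM was 3.32 times the control with shTRIB3-1 and 3.62 times with shTRIB3-2. The log2 differences were 1.73 and 1.85 (SE 0.0558; limma adjusted p = 8.06e-11 and 3.49e-11). Between hairpins ANXA3 differed by 0.12, which did not pass (adjusted p = 0.0952).

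ANXA5 lies on the same chromosome (GRCh38 chr4:121667946-121696995, minus strand). It measured 130.3, 129 and 129.6 FPKM in shCtrl, 222, 238 and 223 with shTRIB3-1 and 198, 208 and 204 with shTRIB3-2. The 3 groups did not overlap. ANXA5 rose by 0.81 on the log2 scale with shTRIB3-1 and by 0.65 with shTRIB3-2 (SE 0.0331; limma adjusted p = 5.86e-10 and 3.29e-09). It was lower with shTRIB3-2 than with shTRIB3-1 by a small margin, -0.16 (adjusted p = 0.00175). In FPKM this most abundant annexin gained more than any other member with both hairpins, from a mean of 129.6 ± 0.706 to 227 ± 8.80 and 203 ± 5.00 (SD, n = 3 each).

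ANXA2 forms a heterotetramer with S100A10 that binds plasminogen and its activator at the cell surface (GRCh38 chr15:60347134-60402883, minus strand). It measured 35.1, 34.2 and 34.6 FPKM in shCtrl, 47.1, 49.3 and 47.2 with shTRIB3-1 and 49.1, 50.4 and 47.5 with shTRIB3-2. All knockdown libraries were above all controls. The rise was 0.47 with shTRIB3-1 and 0.50 with shTRIB3-2 on the log2 scale (SE 0.0325; limma adjusted p = 6.70e-08 and 3.14e-08), and the hairpins overlapped. The level of ANXA2 is uncertain, because 28.5% of the 50-base stretches of its transcript also occur in the processed pseudogene ANXA2P2. No other member shared more than 0.318% of its 50-base stretches with another gene.

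ANXA6 and ANXA7 rose less. ANXA6, which carries a duplicated annexin core and acts on endosomes and cholesterol traffic (GRCh38 chr5:151100706-151157815, minus strand), measured 63.0, 64.9 and 63.8 FPKM in shCtrl. It measured 79.5, 76.5 and 79.2 FPKM with shTRIB3-1 and 75.6, 76.1 and 74.2 with shTRIB3-2. No knockdown library overlapped a control. The differences were 0.29 and 0.24 (SE 0.0284; limma adjusted p = 1.32e-06 and 8.52e-06).

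ANXA7, also called synexin, promotes fusion of granule membranes (GRCh38 chr10:73375101-73414076, minus strand). It measured 56.5, 54.3 and 53.4 FPKM in shCtrl, 57.8, 61.3 and 61.6 with shTRIB3-1 and 62.6, 66.1 and 62.4 with shTRIB3-2. The lowest knockdown library stood just above the highest control. The rise was 0.14 with shTRIB3-1, which was lost when libraries were rescaled to TPM (a rescaling of FPKM to one fixed total per library; 0.08, limma adjusted p = 0.0537), and 0.22 with shTRIB3-2 (SE 0.0370; limma adjusted p = 0.00497 and 1.72e-04 without rescaling). A gene on the opposite strand covers 3.67% of the exon bases of ANXA7, and the strand setting of the counting is not given in the sources used here.

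ANXA13 and ANXA9 fell with both hairpins. ANXA13, a myristoylated annexin best known from intestine and kidney, measured 2.90, 3.61 and 2.86 FPKM in shCtrl. With shTRIB3-1 it measured 0.722, 0.296 and 0.582 FPKM and with shTRIB3-2 0.481, 0.746 and 0.415 FPKM. It kept 162 to 207 fragments in each control library against 16 to 41 in each knockdown library, without overlap. The log2 differences were -2.41 and -2.34, and they were -1.43 and -1.42 with a pseudocount of 1 in place of 0.1. The low-value filter (at least 1 FPKM in at least 3 libraries) admitted ANXA13 through the controls alone and ANXA1 through the knockdown libraries alone. Without the filter the difference of ANXA13 still passed with both hairpins (SE 0.288; limma adjusted p = 1.40e-04 and 1.58e-04) and did not pass between them (0.06, adjusted p = 0.941).

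ANXA9 has degenerate calcium sites and binds calcium poorly (GRCh38 chr1:150982249-150995634, plus strand). It measured 11.3, 10.03 and 10.7 FPKM in shCtrl, 7.19, 6.80 and 8.26 with shTRIB3-1 and 8.68, 8.51 and 7.93 with shTRIB3-2. Every knockdown library was below the controls, while the hairpins overlapped. The log2 differences were -0.52 and -0.35 (SE 0.0712; limma adjusted p = 2.92e-05 and 7.93e-04).

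ANXA4 passed the test as lower with shTRIB3-1 and ANXA11 as lower with shTRIB3-2, and for both genes the hairpins differed from each other. ANXA4, an annexin of secretory epithelia (GRCh38 chr2:69644425-69827112, plus strand), measured 32.4, 31.5 and 31.6 FPKM in shCtrl, 28.4, 28.7 and 27.7 with shTRIB3-1 and 31.9, 32.02 and 32.5 with shTRIB3-2. The shTRIB3-1 libraries lay below the other groups, which overlapped. ANXA4 fell by 0.17 with shTRIB3-1 (SE 0.0301; limma adjusted p = 2.45e-04), differed by 0.01 with shTRIB3-2 (adjusted p = 0.690) and was higher in shTRIB3-2 than in shTRIB3-1 by 0.18 (adjusted p = 3.89e-04).

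ANXA11 carries a long tail that docks PDCD6 and S100A6 (GRCh38 chr10:80150889-80205572, minus strand). It measured 18.0, 17.1 and 16.3 FPKM in shCtrl, 17.1, 17.0 and 16.9 with shTRIB3-1 and 13.8, 13.9 and 13.4 with shTRIB3-2. Here the shTRIB3-2 libraries lay below the other groups. The difference was -0.01 with shTRIB3-1 (SE 0.0411; limma adjusted p = 0.862), -0.32 with shTRIB3-2 (adjusted p = 1.69e-05) and -0.31 between the hairpins (adjusted p = 8.39e-05).

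ANXA1 is left out of the counts, since it was not tested. Of the other 9 members, 2 passed the call with shTRIB3-1 (ANXA3 and ANXA13), where 11.5% of all tested genes did. ANXA3 and ANXA13 also passed it with shTRIB3-2, where 12.3% did. At a limma adjusted p under 0.05, 5 of 9 members were higher with shTRIB3-1 (32.9% of all tested genes were) and 3 of 9 were lower (41.5%). With shTRIB3-2, 5 of 9 were higher (35.4%) and 3 of 9 lower (40.5%). ANXA13 is in these counts of called and of lower members in both comparisons, although the low-value filter admitted it through the controls alone. With ANXA13 left out, ANXA3 was the only called member with each hairpin. The lower members were then ANXA4 and ANXA9 with shTRIB3-1, and ANXA9 and ANXA11 with shTRIB3-2. ANXA13 passed without the low-value filter too. Ranked by log2 difference, the middle member of the 9 other than ANXA1 was ANXA7 with each hairpin, at 0.14 and 0.22. The median over all tested genes was -0.06 with shTRIB3-1 and -0.03 with shTRIB3-2. Both comparisons used the same control libraries. Between the hairpins 0 of the 9 members passed the limma call, which 2.08% of tested genes did, with differences of at most 0.31 in size. At an adjusted p under 0.05, 1 was higher with shTRIB3-2 (ANXA4; 25.1% of tested genes) and 2 were lower (ANXA5 and ANXA11; 20.7%).

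**Figure D2:**
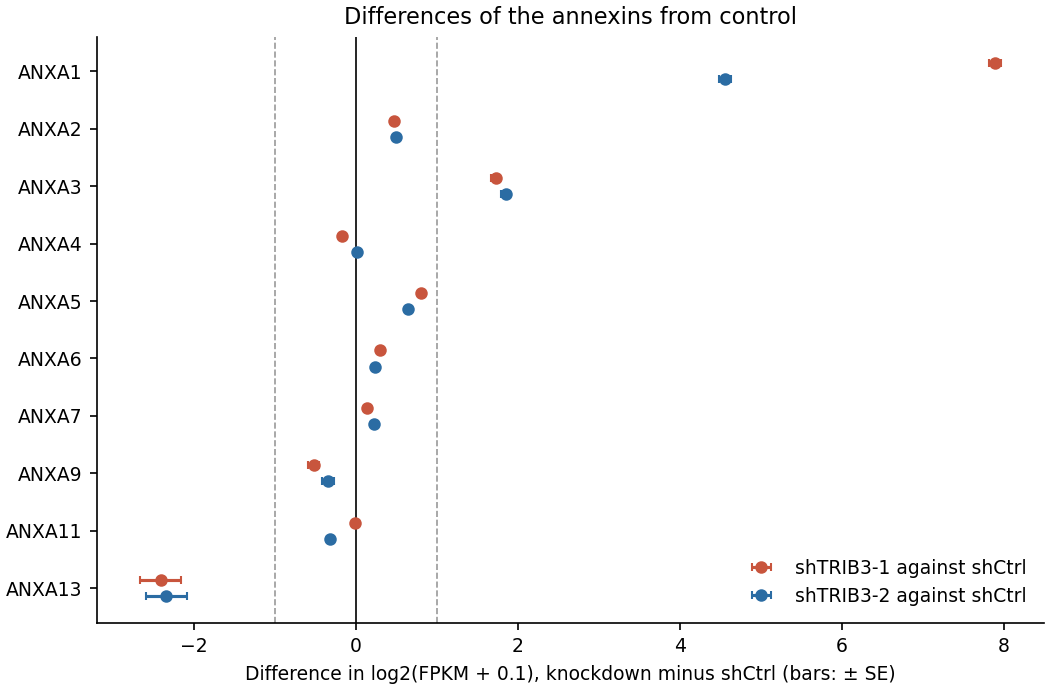
Difference of each annexin from shCtrl in log2(FPKM + 0.1) with shTRIB3-1 and shTRIB3-2, with bars of 1 SE and dashed lines at a difference of 1 in either direction. ANXA1, ANXA3 and ANXA13 lie beyond the dashed lines with both hairpins, and the other 7 lie between them.

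The annexin transcripts together became more abundant. The FPKM of the 10 genes summed to 359.8 ± 4.51 in shCtrl, 577 ± 14.0 with shTRIB3-1 and 503 ± 9.58 with shTRIB3-2 (SD, n = 3 each), without overlap between groups. Without ANXA1 the sums were 359.6 ± 4.52, 514 ± 11.1 and 496 ± 9.52 FPKM, and the hairpins then overlapped. ANXA5 held 36.0% of the sum in control cells, 39.4% with shTRIB3-1 and 40.4% with shTRIB3-2. ANXA1 went from 0.0465% to 10.9% and 1.23%, and ANXA3 from 3.89% to 8.07% and 10.1%. ANXA6 went the other way in share although its level rose, from 17.8% to 13.6% and 15.0%, and ANXA4 from 8.84% to 4.90% and 6.39%.

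**Figure D3:**
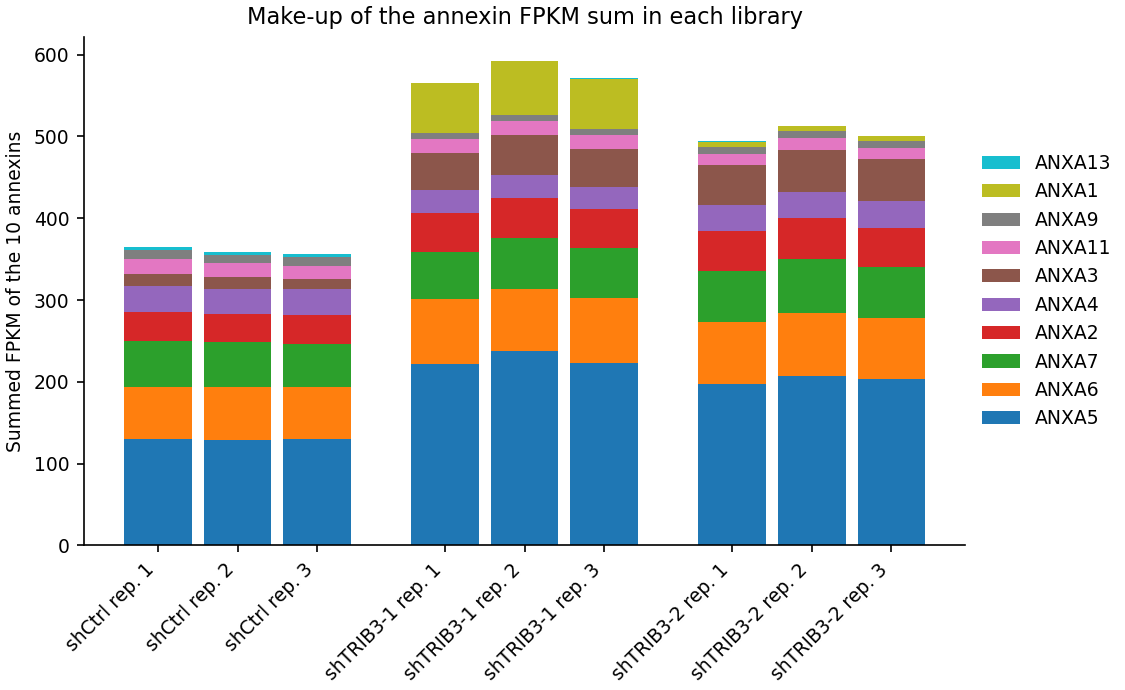
Summed FPKM of the 10 annexins in each library, stacked by gene. The control bars stand at 356 to 365 FPKM, the shTRIB3-1 bars at 566 to 592 and the shTRIB3-2 bars at 494 to 513, and the ANXA1 layer is thick with shTRIB3-1, thin with shTRIB3-2 and not visible in the controls.

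The bases upstream of the annexin genes are shown for the 4 members with the clearest increases, to let their base composition and motif matches be compared. The study is about G-quadruplex DNA, a folded form of G-rich strands. Each line is 250 bases before the RefSeq gene start (GRCh38.p14), 5′ to 3′ on the strand of the gene. Capitals mark a G-quadruplex pattern (4 runs of at least 3 G with short loops, on either strand) or, in ANXA2, also the AP-1 motif TGANTCA.
ANXA1 at chr9:73151615-73151864, plus strand: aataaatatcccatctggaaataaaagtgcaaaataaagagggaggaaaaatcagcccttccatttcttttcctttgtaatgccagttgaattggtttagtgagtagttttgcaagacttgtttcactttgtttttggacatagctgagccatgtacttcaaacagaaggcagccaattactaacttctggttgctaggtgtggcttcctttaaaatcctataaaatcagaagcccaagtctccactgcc
ANXA3 at chr4:78551520-78551769, plus strand: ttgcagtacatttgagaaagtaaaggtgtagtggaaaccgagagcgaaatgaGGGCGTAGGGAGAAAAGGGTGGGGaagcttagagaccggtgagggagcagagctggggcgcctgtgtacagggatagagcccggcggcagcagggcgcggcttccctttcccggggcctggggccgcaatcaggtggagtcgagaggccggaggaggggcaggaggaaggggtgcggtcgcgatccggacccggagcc
ANXA5 at chr4:121696981-121697230, minus strand: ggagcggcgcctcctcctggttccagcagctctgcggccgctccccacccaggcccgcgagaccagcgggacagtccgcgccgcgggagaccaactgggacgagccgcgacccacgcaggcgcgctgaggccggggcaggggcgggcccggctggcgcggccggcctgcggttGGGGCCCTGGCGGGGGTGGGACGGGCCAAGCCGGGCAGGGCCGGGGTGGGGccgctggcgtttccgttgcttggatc
ANXA2 at chr15:60397987-60398236, minus strand: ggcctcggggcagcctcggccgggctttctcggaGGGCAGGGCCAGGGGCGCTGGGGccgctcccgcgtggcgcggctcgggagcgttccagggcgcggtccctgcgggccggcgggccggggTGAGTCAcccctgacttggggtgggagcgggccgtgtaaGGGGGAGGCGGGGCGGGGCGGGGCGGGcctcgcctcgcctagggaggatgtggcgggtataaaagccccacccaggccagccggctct
The upstream bases of ANXA1 were AT-rich, with a GC content of 38.4% against a median of 58.0% over 35116 promoters, and held none of the 4 motifs searched (AP-1 as above, STAT as TTCNNNGAA, the palindromic glucocorticoid receptor element and the G-quadruplex pattern, on both strands). ANXA3, ANXA5 and ANXA2 had 64.0%, 78.8% and 78.0% GC, and each held a G-quadruplex pattern, which 23.5% of all promoters of this length held. The pattern also occurred upstream of ANXA6, ANXA7, ANXA4 and ANXA11, though not in every promoter of ANXA6, ANXA4 and ANXA11. ANXA9 held none. Since ANXA4 and ANXA11 passed as higher with neither hairpin, the pattern was not particular to the members that rose. The AP-1 match of ANXA2 starts 127 bases before the gene, and lies apart from its G-quadruplex matches. Of all promoters, 6.57% held an AP-1 match, 6.57% a STAT match and 0.00285% the full glucocorticoid receptor element. A match in these letters is a description and not evidence of binding.

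Transcripts of 4 S100 proteins that dock on annexin tails rose with both hairpins. Of 7 EF-hand partners of annexins, 6 were tested, 4 were called higher with each hairpin (S100A10, S100A11, S100A6 and S100A4) and none lower. Over all tested genes, 11.5% were called with shTRIB3-1 and 12.3% with shTRIB3-2, counting both directions together. S100A10, the partner of ANXA2, measured 189.9, 185 and 188 FPKM in shCtrl, 447, 469 and 445 with shTRIB3-1 and 428, 451 and 411 with shTRIB3-2. S100A10 rose by 1.27 and 1.19 on the log2 scale (SE 0.0374; limma adjusted p = 4.25e-11 and 4.71e-11). S100A11, the partner of ANXA1, measured 118, 111 and 112 FPKM in shCtrl, 354, 344 and 325 with shTRIB3-1 and 338, 377 and 346 with shTRIB3-2. It rose by 1.58 and 1.64 (SE 0.0457; limma adjusted p = 3.64e-11 and 1.89e-11). For both partners the knockdown libraries were all above the controls and the hairpins overlapped, unlike the ANXA1 transcript itself.

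S100A6, a partner of ANXA11, rose by 1.39 and 1.61 (limma adjusted p = 1.10e-09 and 2.34e-10), and S100A4 by 1.98 and 1.70 (limma adjusted p = 4.44e-08 and 1.56e-07). The penta-EF-hand genes PDCD6 and PEF1 went the other way. PDCD6, which docks on ANXA11 and ANXA7, fell by 0.19 and 0.16 (limma adjusted p = 0.00206 and 0.00621). PEF1, the binding partner of PDCD6, fell by 0.37 and 0.39 (limma adjusted p = 2.51e-05 and 1.32e-05). SRI, known as sorcin and a partner of ANXA7, was below the filter, with 1 fragment in each control library, 69 to 89 with shTRIB3-1 and 16 to 25 with shTRIB3-2. The median log2 difference of the 6 tested partners was 1.33 and 1.40, beside -0.06 and -0.03 over all tested genes.

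**Figure D4:**
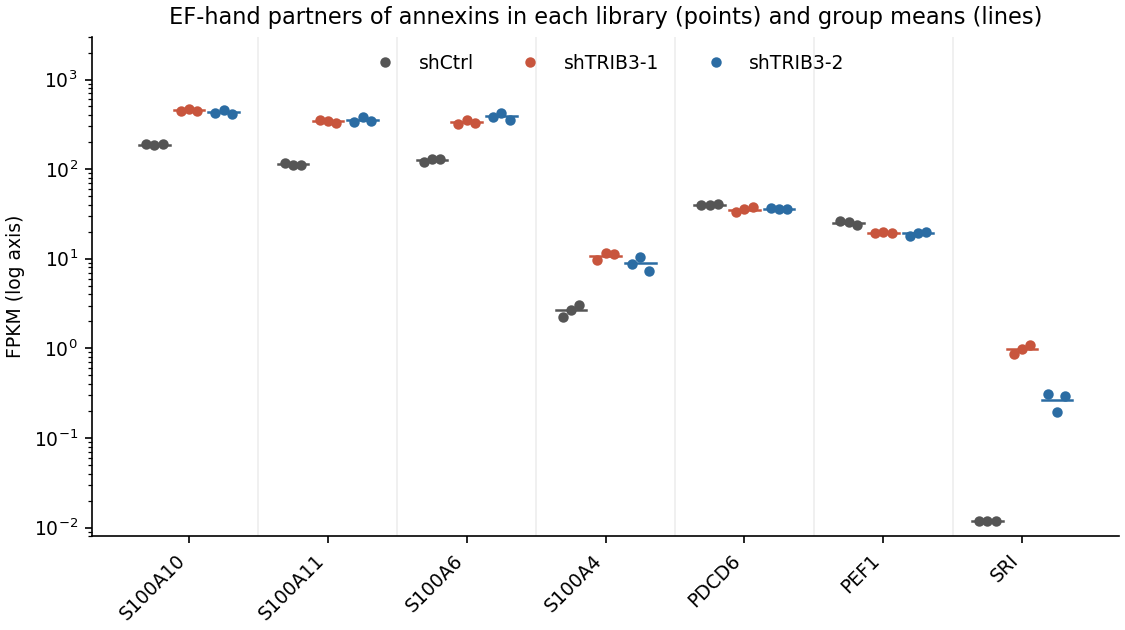
FPKM (log axis) of the 7 EF-hand partners of annexins in each library, with lines for group means. The S100 genes lie higher in all 6 knockdown libraries than in the controls, PDCD6 and PEF1 lie slightly lower, and SRI is at 1 fragment in each control library.

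Genes of the plasminogen system around ANXA2 and S100A10 were mostly higher. Of 8 genes, 7 were tested, but 3 of these (PLG, PLAUR and PLAU) had no control library at the filter minimum and are left out of the count. The remaining 4 were all higher with each hairpin at an adjusted p under 0.05 (32.9% and 35.4% of all tested genes were), and 1 was called (11.5% and 12.3%). PLG, plasminogen itself, averaged 0.405 FPKM in shCtrl, 1.85 with shTRIB3-1 and 2.13 with shTRIB3-2. In the fit without the filter PLG rose by 1.95 and 2.15 on the log2 scale (limma adjusted p = 8.21e-06 and 3.95e-06). PLAUR, the urokinase receptor, rose by 2.60 and 1.85 in that fit (limma adjusted p = 8.90e-07 and 6.51e-06). PLAU, urokinase, differed there by -0.39 and 0.62 (limma adjusted p = 0.196 and 0.0473). With the filter, SERPINE2, a protease inhibitor, rose by 2.48 and 2.12 (limma adjusted p = 9.88e-12 and 2.08e-11). AHNAK, the giant scaffold held at the membrane by the ANXA2 complex, averaged 24.4, 42.1 and 38.8 FPKM, a rise of 0.78 and 0.67 (limma adjusted p = 3.13e-09 and 1.14e-08).

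Of 8 receptors and enzymes linked to ANXA1, 6 were analysed, and 4 of these were at or near 0. FPR3, a formyl peptide receptor, the phospholipase gene PLA2G4A and the cyclooxygenase gene PTGS2 had at most 1 fragment in any library, and PTGES had 2 to 8. FPR1 and FPR2 were not analysed here. EGFR, a kinase known to phosphorylate ANXA1, averaged 0.653 FPKM in shCtrl, 0.896 with shTRIB3-1 and 1.77 with shTRIB3-2, and no control library reached the filter minimum. Without the filter EGFR rose by 0.40 and 1.31 (limma adjusted p = 0.0402 and 4.68e-05). TRPM7, a channel kinase that also phosphorylates ANXA1, rose by 0.39 and 0.46 (limma adjusted p = 2.08e-06 and 4.12e-07).

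ANXA1 is a known glucocorticoid target. A list of the glucocorticoid receptor gene and other genes that glucocorticoids induce had 8 tested members. TSC22D3 and TAT each had a group with no library at the filter minimum and are left out of the count. Of the remaining 6, 3 were higher and 0 lower with shTRIB3-1 at a limma adjusted p under 0.05 (32.9% and 41.5% of all tested genes), and 3 were higher and 2 lower with shTRIB3-2 (35.4% and 40.5%). The gene of the receptor itself was among the higher ones with each hairpin. DUSP1, a phosphatase of MAP kinases that many stimuli induce, rose from a mean of 16.1 FPKM to 75.5 and 72.6, by 2.23 and 2.17 on the log2 scale (limma adjusted p = 2.62e-12 and 1.63e-12). TSC22D3, the glucocorticoid-induced leucine zipper, rose by 0.79 and 0.43 without the filter (limma adjusted p = 5.97e-04 and 0.0178). SGK1, a serum- and glucocorticoid-induced kinase, rose by 0.33 with shTRIB3-1 (limma adjusted p = 0.00710) and fell by 1.08 with shTRIB3-2 (limma adjusted p = 4.88e-07), and the hairpins differed by -1.41 (limma adjusted p = 3.48e-07). TAT, the liver tyrosine aminotransferase, fell by 0.62 and 0.45 without the filter (limma adjusted p = 0.00343 and 0.0184).

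Other calcium-dependent membrane-binding proteins with C2 domains, the copines, ferlins and extended synaptotagmins, moved in both directions. Of 15 genes, 7 were tested, and without MYOF, whose control libraries were all under the filter minimum, 1 of 6 was called higher and 1 lower with each hairpin (11.5% and 12.3% of all tested genes were called). MYOF, myoferlin, a membrane repair protein, rose from a mean of 0.465 FPKM by 2.13 and 1.69 without the filter (limma adjusted p = 7.62e-06 and 3.19e-05). CPNE2 rose by 1.24 and 1.61 (limma adjusted p = 1.46e-08 and 1.11e-09). CPNE1, the most abundant copine here, fell from a mean of 124 FPKM to 50.3 and 46.1, by 1.30 and 1.42 on the log2 scale (limma adjusted p = 1.05e-11 and 2.92e-12). The ESCRT machinery works beside annexins at membrane wounds. Of its 9 tested genes 0 were called by limma (11.5% and 12.3% of all tested genes were), and 7 of 9 were higher with each hairpin at an adjusted p under 0.05 (32.9% and 35.4%). VPS4B, the ATPase that disassembles ESCRT filaments, rose by 0.70 and 0.48 (limma adjusted p = 1.73e-08 and 4.41e-07).

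Markers of other cell types that also carry annexins were read over whole lists. The 5 endothelial markers summed to 0.536 to 0.611 FPKM in shCtrl, 7.75 to 8.99 with shTRIB3-1 and 5.95 to 6.26 with shTRIB3-2. TIE1, whose control libraries were all under the filter minimum, made nearly all of this sum in the knockdown groups and rose by 4.33 and 3.88 without the filter (limma adjusted p = 9.55e-09 and 1.17e-08), while PECAM1 and VWF stayed under 0.2 FPKM and CDH5 and KDR under 0.03 in every library. The 7 leukocyte markers summed to 1058 to 1179, 534 to 561 and 614 to 653 FPKM, of which LYZ was nearly all, and PTPRC and CD3E had at most 1 fragment in any library. The 7 markers of other epithelia summed to 8.45 to 9.11, 7.14 to 8.01 and 7.68 to 8.90 FPKM, nearly all from ELF3, while KRT14 reached at most 0.464 FPKM and KRT5, TP63 and CDX2 stayed under 0.02 FPKM. Any part of these markers in the annexin differences was not tested.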

How the data were processed

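RNA-seq of 9 HepG2 libraries was analysed, grouped by their labels into shCtrl, shTRIB3-1 and shTRIB3-2 with 3 libraries each. The authors deposited FPKM in a single table with genes in lines and libraries in columns. According to the methods of the study, reads were aligned with STAR to GRCh38 and tested with DESeq2, and the submitters' processing notes name HTSeq and R 3.2.0. The annotation release and the strand setting of the counting are not given in the sources used here. FPKM does not correct for composition, so a large rise of abundant genes lowers all other values of that library.

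The 10 members, the gene lists and the rule for named genes were chosen with earlier results of these data known. The rule named all members and TRIB3, all EF-hand partners and ANXA1 receptors or enzymes, at most 4 tested genes of each other list by mean absolute change over both hairpins, and the 5 genes most correlated with ANXA1. Lists were written from general knowledge.

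Of 24204 genes, 11265 had an FPKM of at least 1 in at least 3 libraries and were tested as log2(FPKM + 0.1), a scale that understates changes of low genes. limma 3.58.1 (R 4.3.3) fitted 3 group means to all 9 libraries with empirical Bayes and a mean-variance trend. P-values were two-sided, with Benjamini-Hochberg adjustment across the 11265 genes. A call needed an adjusted p under 0.05 and an absolute log2 difference above 1. The fit was tested on simulated data.

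Fragment numbers were worked out from the FPKM values, and 100.0% of 172769 values above 0 came within 0.02 of a whole number. Library totals ran from 34206726 to 36311029, a ratio of 1.06, and fragments carry counting error at least. Replicates differed by more than sampling noise (chi-square per gene 3.13 to 7.54), so none was a copy. The labels give no batch or date.

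Alternatives were other pseudocounts, filters and scalings, voom on recovered fragments with TMM factors, a replicate block and leaving out each library. Gene positions and exon overlaps came from GENCODE on GRCh38, and upstream sequences from RefSeq on GRCh38.p14, where 9 of the 10 members matched. Python 3.11.15 with pandas 2.3.3 and numpy 2.4.6 was used for tables.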

Additional observations from a re-analysis of the deposited data

Results flagged for a closer look

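For 3 annexins the effect of knockdown differed between the hairpins by a test of shTRIB3-2 against shTRIB3-1. ANXA4 was higher with shTRIB3-2 by 0.18 on the log2 scale (limma adjusted p = 3.89e-04). ANXA5 was lower with shTRIB3-2, with a difference of -0.16 (limma adjusted p = 0.00175). ANXA11 was also lower, with a difference of -0.31 (limma adjusted p = 8.39e-05). The libraries of the hairpins did not overlap in these 3 genes. They also did not overlap in ANXA6 and ANXA7, which did not pass (limma adjusted p = 0.121 and 0.0963). The share of all tested genes without such overlap was not worked out, so this describes single genes and not the family. Over all tested genes, 25.1% were higher and 20.7% lower with shTRIB3-2 than with shTRIB3-1 at an adjusted p under 0.05. ANXA1 differed more between the hairpins but was chosen with that known and was not tested. Groups of 3 libraries are too small for a check on single outlying libraries.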

How the results depend on the processing

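Over 483 values of the 9 annexins other than ANXA1 under alternatives, 474 kept their side of the threshold, 2 lost significance and 7 gained it. Of values that passed in the main fit or the alternative, 0 changed direction. Differences that passed in neither fit could change sign, and ANXA11 with shTRIB3-1 ran from -0.06 to 0.07. ANXA7 with shTRIB3-1 lost it on rescaling to TPM, and ANXA5 between hairpins lost it under quantile normalization (-0.08, limma adjusted p = 0.0574). The 7 gains concern ANXA3, ANXA7 and ANXA9 between hairpins. ANXA9 there reached 0.26 without shTRIB3-1 replicate 3 (limma adjusted p = 0.00874). For ANXA1 the alternatives gave 5.77 to 8.53 (shTRIB3-1 against control) and 2.62 to 5.16 (shTRIB3-2 against control), and its low control level makes it depend on the pseudocount. ANXA13 ran from -2.83 to -1.43 and from -2.55 to -1.42, nearest to 0 with a pseudocount of 1, and was not tested at an FPKM minimum of 5.

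With a pseudocount of 1, 780 genes were called with shTRIB3-1, 888 with shTRIB3-2 and 84 between hairpins. With an FPKM minimum of 5 the counts were 745, 801 and 126. With no filter they were 1999 with shTRIB3-1 and 417 between hairpins. The cause was not tested. Leaving out each library gave 1258 to 1333, 1385 to 1426 and 234 to 247 genes.

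Deviations of same-numbered libraries correlated weakly, at -0.0742 to 0.0933, beside -0.0756 to 0.0479 for differently numbered libraries. Between shTRIB3-1 and shTRIB3-2 the same-numbered pairs (0.0279 to 0.0933) lay above the differently numbered ones (-0.0756 to 0.0137). The same held between shCtrl and shTRIB3-1, but not between shCtrl and shTRIB3-2. These values do not settle whether replicate numbers pair the libraries. The replicate block gave 1295, 1389 and 234 genes called, and it changed no call of the 9 annexins other than ANXA1.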
